A study of Saccharomyces cerevisiae with 24 samples.

Results

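Helix H69 of the yeast 25S rRNA was described through the 21 positions from 2250 to 2270 of that RNA, out of 5475 rRNA positions in the deposited error tables. These positions were set by their place in the sequence and not by a cutoff on a measured value, but with earlier results of these data known. The stretch holds 5 known modified nucleotides, the pseudouridines (Ψ) Ψ2258, Ψ2260, Ψ2264 and Ψ2266 and the 2′-O-methylated adenosine Am2256. All 21 positions had at least 20 reads in each of the 20 libraries with error tables, so no member was lost to the coverage filter.

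The study sequenced native rRNA of Saccharomyces cerevisiae BY4741 on nanopores without copying it to DNA, in 12 groups of 2 libraries. All strains grew in YPD at 30 °C. In the strain experiment, wild type (WT) was compared with snR3KO, snR34KO and snR36KO, in each of which a kanMX4 cassette took the place of a snoRNA gene. In the gradient experiment, RNA of wild-type cells was taken from sucrose gradient fractions 1 to 4 (F1 to F4). In the peroxide experiment, wild-type cultures were left untreated (WTinput, WTtranslated) or given 1 mM H2O2 for 30 min (H2O2input, H2O2translated), and either total RNA (input) or pooled fractions 3 and 4 (translated) were sequenced. Per the labels' protocols, cycloheximide was added to the gradient cultures, these were grown as biological duplicates, and strain and input RNA was purified with a yeast RNA kit while fraction RNA came from gradients. Nothing in the labels says whether the 2 libraries of a strain came from separate cultures, so tests on them measure the spread between these libraries only.

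H69 is a short stem-loop of the large subunit that reaches across to the small subunit and forms an intersubunit bridge next to the decoding centre, and its loop carries several pseudouridines in many organisms. In yeast, box H/ACA snoRNAs pair with rRNA and guide the isomerization of chosen uridines to Ψ, whereas box C/D snoRNAs guide 2′-O-methylation. From general knowledge of these RNAs, snR191 guides Ψ2258 and Ψ2260, snR3 guides Ψ2264, snR84 guides Ψ2266 and the C/D snoRNA snR63 guides Am2256, while snR34 and snR36 guide sites elsewhere. A modified base changes the current as the strand passes the pore, and the basecaller then more often reports a wrong base (mismatch), an extra base (insertion) or a missing base (deletion), each given here as a percentage of the reads over the position.

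The stretch is shown because its letters are the members. It is read from the reference column of the deposited error tables, 5′ to 3′, with T standing for U and the 5 modified nucleotides in capitals.
25S region: ggagtaAcTaTgacTcTctta

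The reference 25S is 3396 nucleotides long, the same as the RDN25-1 gene in the R64 gene table. In the order of the line above, the capitals are Am2256, Ψ2258, Ψ2260, Ψ2264 and Ψ2266. The remaining 16 positions have no modification on the list used here.

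Coverage over the 21 positions ran from 91 reads in replicate 1 of F1 to 17892 reads in replicate 1 of snR3KO. It was 8237 to 17892 reads in the 4 strain libraries, 91 to 13574 in the 8 gradient libraries and 293 to 12885 in the 8 peroxide libraries. The 2 F1 libraries were the shallowest. The typical mismatch at uridines without a listed Ψ (the median over such positions) lay between 2.43% and 5.08% in the 20 libraries. Only replicate 1 of each strain has an error table here, so strain differences in error rates have no replicate check, and their 95% intervals (Wilson, or Newcombe for differences) cover counting error only.

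In wild-type cells the 5 sites fell into those read mainly as a wrong base and those read mainly as a missing base. In replicate 1 of WT, Am2256 was mismatched in 76.6% of reads (95% interval from 75.7% to 77.4%), with 5.95% insertions and 2.20% deletions. Its mismatch ranked 2 among 1450 adenines of the 4 rRNAs. Ψ2258 was mismatched in 74.9% of reads (74.0% to 75.7%) and deleted in 1.99%, and ranked 4 in mismatch among the 45 listed pseudouridines. Ψ2264 was mismatched in 61.0% (60.1% to 62.0%) and deleted in 20.4%, and ranked 10.

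At the other 2 pseudouridines the deletion was the leading error. Ψ2260 was missing from 63.5% of reads (62.5% to 64.5%), the deletion that ranked 2 among the 45, and mismatched in 25.1%. Ψ2266 was missing from 42.8% (41.8% to 43.8%), ranked 7 in deletion but 42 in mismatch, at 15.6%, and had insertions in 25.7%. Its base quality score of 5.44 was the lowest of the 45 pseudouridines. Deletions exceeded mismatches at 2 of the 4 pseudouridines of the helix (50%) and at 6 of the 41 others (14.6%), a description of 1 library with no test. A mismatch rate alone therefore ranked Ψ2260 and Ψ2266 at 34 and 42 of 45, although 105% and 84.2% were the sums of their 3 error percentages, which may exceed 100% because insertions are counted beside the base itself.

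Errors were not limited to the 5 listed sites. A2259, the adenine between Ψ2258 and Ψ2260, was mismatched in 70.9% of reads (70.0% to 71.8%) and deleted in 18.2%, and its mismatch ranked 3 among the 1450 adenines, next after Am2256. U2268 and U2269, 3′ of Ψ2266, were mismatched in 25.4% and 27.6% of reads, and ranked 29 and 22 among 1403 uridines not on the list. C2267 had insertions in 20.7% of reads and ranked 24 among 1075 cytosines. The 6 positions 5′ of Am2256 were quiet by comparison, with mismatches of 0.568% to 4.71%.

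**Figure D1:**
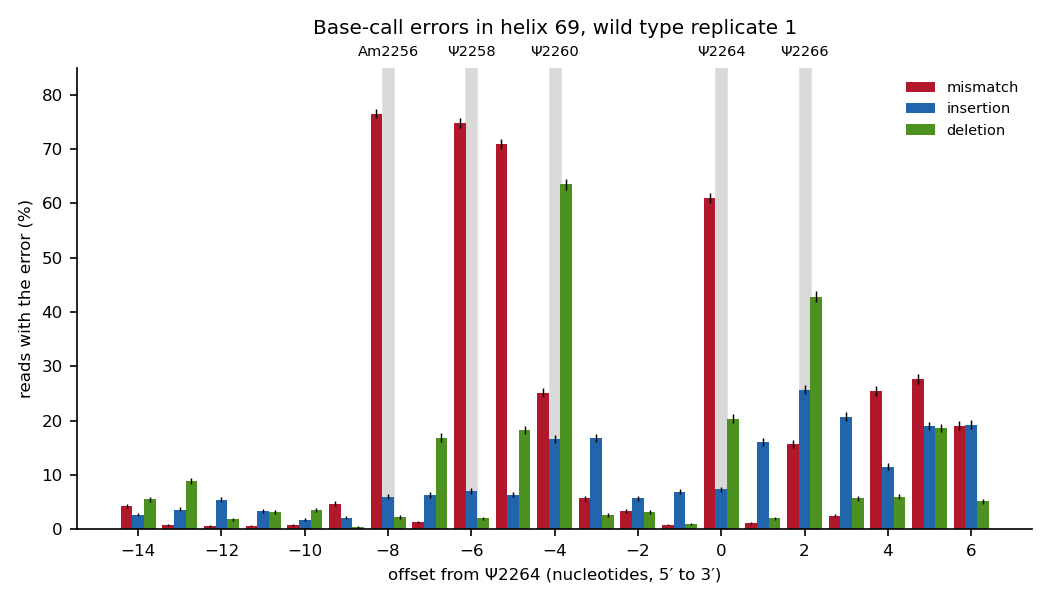
Mismatch, insertion and deletion in replicate 1 of WT at the 21 positions, as a percentage of reads against the offset from Ψ2264, with Wilson 95% intervals as thin bars and the 5 modified sites shaded. Mismatch is high at Am2256 (76.6%), Ψ2258 (74.9%) and Ψ2264 (61.0%), and deletion at Ψ2260 (63.5%) and Ψ2266 (42.8%), and the unlisted position between Ψ2258 and Ψ2260 has a mismatch of 70.9%.

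Each site kept its own kind of error across the study. Mismatch was the largest of the 3 errors at Am2256 and Ψ2258 in 20 of 20 libraries, and deletion was the largest at Ψ2260 and Ψ2266 in 20 of 20. At Ψ2264 mismatch led in 19 of 20 libraries and insertion led in snR3KO. Ranked by mismatch, the order Am2256, Ψ2258, Ψ2264, Ψ2260, Ψ2266 was found in 18 of 20 libraries. In snR3KO, Ψ2264 moved to the last place, and in replicate 2 of H2O2translated Am2256 (78.5%) and Ψ2258 (78.6%) changed places, in a library with 293 to 301 reads here.

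The 19 libraries in which snR3 was present spread over several points or more at each site. Mismatch at Am2256 ran from 76.5% to 84.3% with a median of 81.7%, and at Ψ2258 from 70.4% to 82.1% with a median of 79.5%. Mismatch at Ψ2264 ran from 52.0% in replicate 2 of F1, a shallow library, to 66.9% in replicate 2 of F3, with a median of 61.7%. Deletion at Ψ2260 ran from 55.1%, again in replicate 2 of F1, to 72.2%, with a median of 68.4%. Deletion at Ψ2266 ran from 41.3% to 51.9%, with a median of 48.0%.

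**Figure D2:**
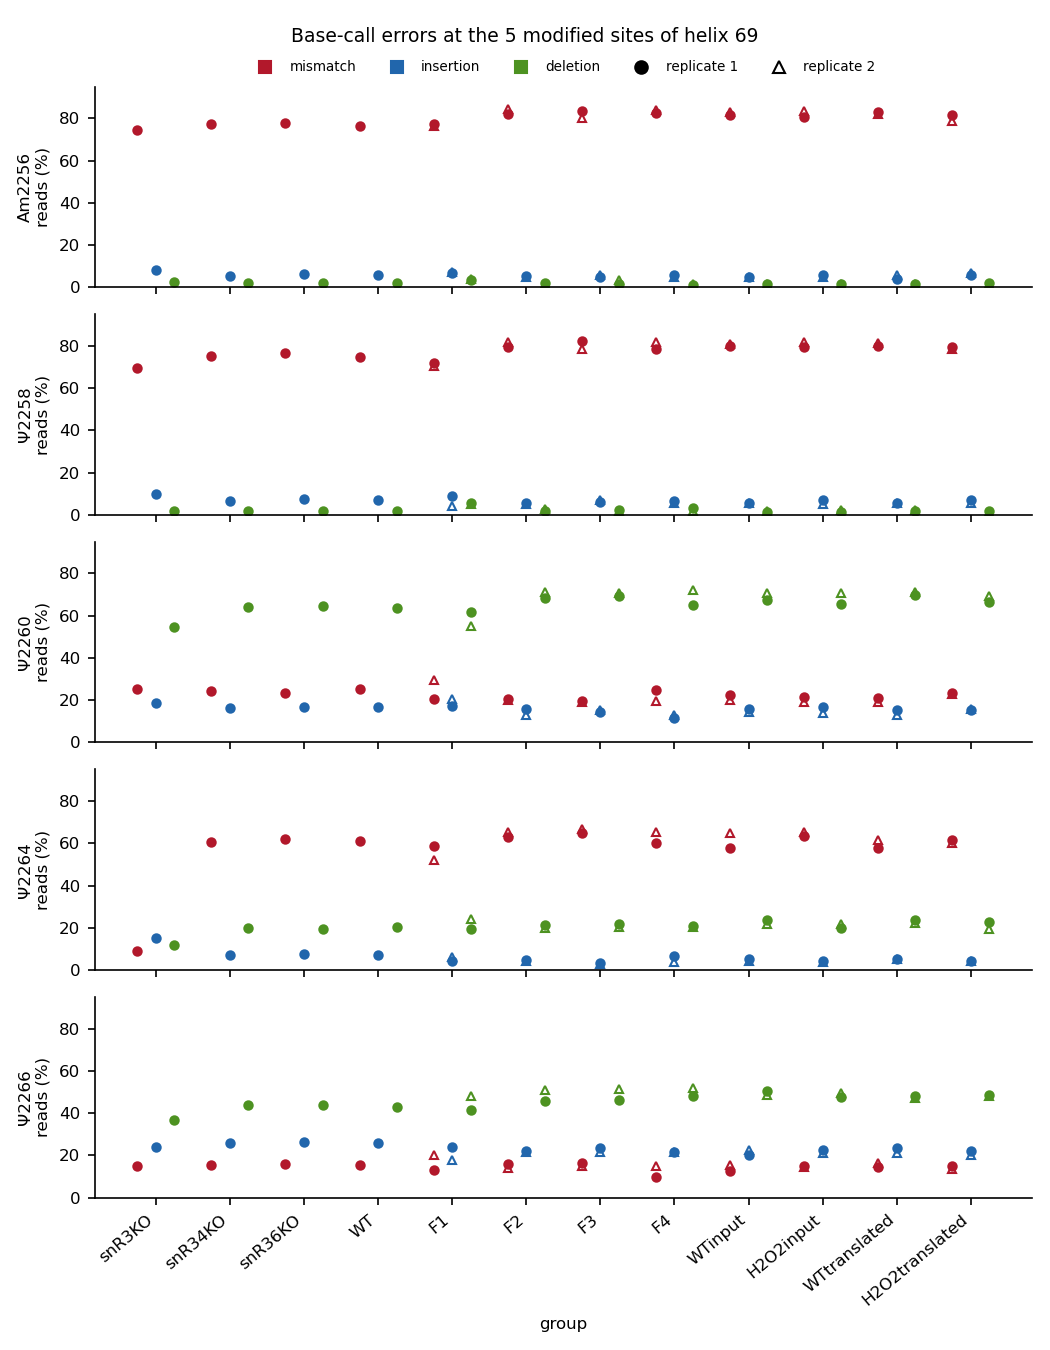
Mismatch, insertion and deletion (percent of reads) at the 5 modified sites in 12 groups, with 1 symbol per library (circle, replicate 1, and triangle, replicate 2). Ψ2264 in snR3KO, at 8.84% mismatch, stands far below the 19 other libraries at 52.0% to 66.9%, and the other sites keep the same leading error in all 20 libraries.

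The 3 strain libraries with snR3 present differed from the 16 gradient and peroxide libraries at some members. Insertions were higher in all 3 than in any of the 16 at 6 of 21 members, against 3.64% of all positions where the 2 sets did not overlap in either direction. These were Ψ2264 and the 5 positions from Ψ2266 to A2270. At Ψ2266 the insertion was 25.7% to 26.5% in the strains and 18.0% to 23.9% in the 16. Mismatch was higher without overlap at 2 of 21 members, G2261 and A2262 (background 3.36%), and deletion at 1, A2259 (background 4.18%). A2259 was deleted in 16.8% to 18.3% of reads in the strains and in 8.60% to 14.1% elsewhere. All 16 carry another RNA fraction label than the strains (ribosomal in place of total RNA), although the inputs are described above as total RNA. RNA of the gradient and translated libraries came from gradients, while strain and input RNA was purified with a kit. The part of label or preparation in these gaps was not tested. The snR3KO values below are therefore set against WT of the same experiment first.

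Mismatch at Ψ2264, the site that snR3 guides, was far lower in snR3KO than in any other library. Mismatch was 61.0% in WT, 60.6% in snR34KO, 62.2% in snR36KO and 8.84% (8.43% to 9.26%) in snR3KO. The difference from WT was -52.2 percentage points (95% interval from -53.2 to -51.1), and WT was 6.91 times as high. The 19 other libraries lay at 52.0% or above. This was the largest mismatch drop among the 45 listed pseudouridines, ahead of the other targets of snR3, 25S_Ψ2133 (48.4% to 1.78%) and 25S_Ψ2129 (48.0% to 3.90%).

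The other errors at Ψ2264 did not follow the mismatch in one direction. Deletion was 20.4% in WT and 11.8% in snR3KO (difference -8.53, from -9.46 to -7.60). Insertion, however, was 7.30% in WT and 15.0% in snR3KO, higher by 7.70 points (6.96 to 8.43), and above the 19 other libraries, whose highest value was 7.60%. At 25S_Ψ2133 and 25S_Ψ2129 insertion was instead lower in the knockout, 46.5% against 9.88% and 27.5% against 8.38%. Without its guide, Ψ2264 also kept more error than a typical uridine of the same library. Its mismatch was above that of 83.3% of the 1405 unlisted uridines, whose median was 3.50%, and its insertion above that of 91.6%. Its quality score, 6.31 in WT and 6.68 in snR3KO, stayed low, with 2.92% of those uridines lower still.

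Members on either side of Ψ2264 differed in snR3KO too, by smaller amounts. At a size of 10 points, 1 of the 63 pairs of member and error type passed, the mismatch at Ψ2264, against 0.0794% of the 16377 pairs over all positions. At 5 points, 4 of 21 members passed for mismatch (background 0.275%), 2 of 21 for insertion (background 0.238%) and 3 of 21 for deletion (background 0.256%). The difference in mismatch, snR3KO minus WT, was -5.35 points at Ψ2258 (69.5% against 74.9%), -7.25 points at A2259 (63.7% against 70.9%) and 5.85 points at G2261 (11.5% against 5.69%). That in insertion was 6.72 points at C2265 (22.8% against 16.1%), the position between Ψ2264 and Ψ2266. That in deletion was -8.72 points at Ψ2260 (54.8% against 63.5%) and -5.84 points at Ψ2266 (37.0% against 42.8%). Reads here come from the same molecules, so errors at neighbouring members are not independent of each other.

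The same values can be read against the 19 libraries with snR3. The snR3KO library lay outside their range at 10 of 21 members for insertion, all 10 above it, against 1.51% of all 5305 positions. These included Ψ2264, U2268, U2269 and A2270, where the 3 strain libraries with snR3 already lay above the other 16. At U2269 snR3KO had 20.0% insertions against at most 19.4% in the 19 libraries, and at A2270 20.7% against at most 19.8%. For deletion the snR3KO library was outside at 8 of 21, 4 above and 4 below (background 1.39%). For mismatch it was outside at 6 of 21, 2 above and 4 below (background 1.32%). Insertions were higher than in WT at 18 of 21 members, with a median difference of 1.05 points, while 51.3% of all positions were higher. The count was also 18 of 21 in snR36KO, with a median difference of 0.335 points and 54.4% of all positions higher, so the count alone does not set snR3KO apart. The members outside the range for deletion were C2257, A2259, C2265 and C2267 on the high side and Ψ2260, Ψ2264, Ψ2266 and A2270 on the low side. Of the pseudouridines that snR3 does not guide, Ψ2260 and Ψ2266 were below the range in deletion, and Ψ2258 was below it in mismatch and above it in insertion.

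Base quality was higher in snR3KO than in WT at 17 of 21 members and at 86% of all positions, and lower at 4 members. It was lower in snR3KO at A2262 (13.9 in WT, 11.9 in snR3KO), C2265 (7.93 and 7.14), C2263 (11.1 and 10.5) and G2261 (14.5 and 14.2). The largest difference upward was at A2255 (15.8 and 16.8). At Ψ2266 the scores were 5.44 and 5.47.

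In the other knockouts the members lay between -1.73 and 1.68 points of WT. In snR34KO and in snR36KO 0 of 63 pairs reached 10 points, against 0.0672% and 0.0244% of all pairs. The largest difference was 1.09 points in snR34KO (deletion at Ψ2266, 43.9% against 42.8%) and -1.73 points in snR36KO (mismatch at Ψ2260, 23.4% against 25.1%). At Ψ2264 their mismatch was 60.6% and 62.2%, on either side of the 61.0% of WT.

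**Figure D3:**
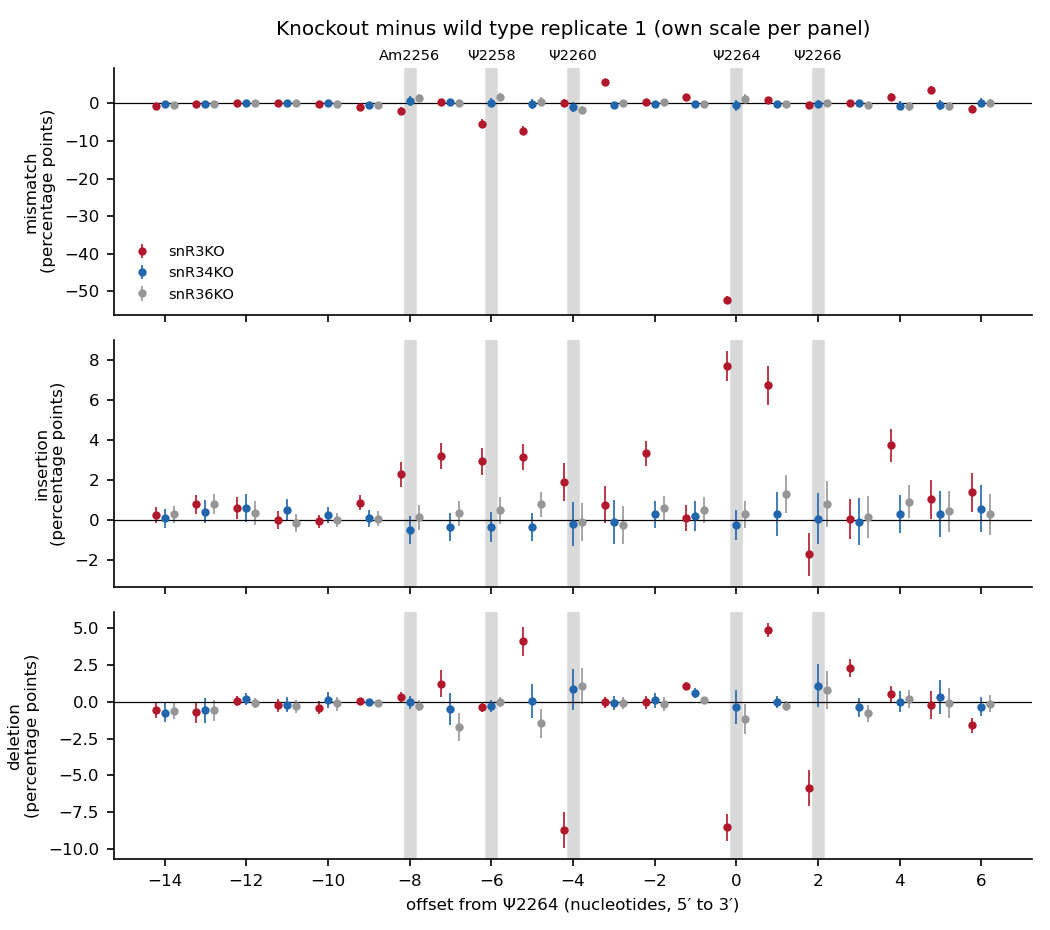
Difference from WT replicate 1 in percentage points (mismatch, insertion and deletion, each panel on its own scale) for the 3 knockouts against the offset from Ψ2264, with 95% intervals for counting error and the 5 modified sites shaded. The snR3KO mismatch difference at Ψ2264 is -52.2 points, the insertion there is higher by 7.70 points, the snR3KO differences at other members lie between -8.72 and 6.72 points, and the other 2 knockouts stay between -1.73 and 1.68 points.

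The current itself was available for 2 libraries of each strain, as a mean event level in picoampere (pA) for each 5-mer, named here by its first position. All 25 5-mers that overlap the stretch were measured in the 8 libraries. Replicate 2 of WT stood apart from replicate 1, with a mean absolute gap of 2.18 pA over all 5158 5-mers and of 2.95 pA over the 25, and a largest gap of 8.60 pA at 25S_2262. The corresponding gaps over the 25 were 0.604 pA in snR3KO, 1.91 pA in snR34KO and 0.923 pA in snR36KO. Values are therefore also given within each replicate number.

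The current departed most at a 5-mer upstream of the snR3 target. At 25S_2255, which spans Am2256 and Ψ2258 but not Ψ2264, snR3KO measured 86.05 and 84.98 pA. The other 6 libraries measured 78.41 and 74.25 pA in WT, 77.41 and 81.16 pA in snR34KO and 78.79 and 80.66 pA in snR36KO. Both snR3KO libraries were above all 6, by 7.07 pA over their mean, and by 7.64 pA over WT within replicate 1 and 10.7 pA within replicate 2. The neighbouring 25S_2254 was 4.68 pA above the mean of the 6.

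Among the 5-mers that do contain Ψ2264, 25S_2261 measured 89.98 and 90.92 pA in snR3KO and 83.55 to 88.51 pA in the other 6. At 25S_2262 it was 83.23 and 83.02 pA against 72.78 to 81.66 pA. The knockout was above all 6 at both, by 3.87 and 3.96 pA over their means. Over the 25 5-mers, both snR3KO libraries were above the other 6 at 7 and below them at 2, together 36% against 2.42% of all 5158 5-mers. Within replicate 1, snR3KO differed from WT by at least 1 pA at 5 of 25 5-mers (0.62% of all). For snR34KO and snR36KO this held at 0 of 25 (0.679% and 0.485% of all).

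No 5-mer of the stretch passed a test across all 5158 5-mers. With limma and Benjamini-Hochberg adjustment, 0 of 25 were called in each of the 3 knockouts against WT, and 0% of all 5-mers were called in each. Unadjusted p-values under 0.05 numbered 18, 17 and 15 over all 5-mers, and 3, 0 and 0 in the stretch, in the order snR3KO, snR34KO and snR36KO. The lowest in the stretch was at 25S_2255 in snR3KO, with a limma difference of 9.18 pA (SE 1.74) and an adjusted p of 0.737, and at 25S_2254 and 25S_2255 in the other 2, with adjusted p of 0.930 and 0.709.

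A single value per site was tested by exact permutation of the 8 libraries. The mean absolute difference between snR3KO and the other strains over the 5 5-mers covering Ψ2264 was 2.06 pA (exact one-sided permutation p = 0.0714, 28 arrangements, smallest possible p 0.0357). The same value was 3.22 pA for Am2256 and 2.90 pA for Ψ2258, each at the smallest possible p of 0.0357. It was 0.723 pA for Ψ2260 (exact permutation p = 0.429) and 1.35 pA for Ψ2266 (exact permutation p = 0.214). Adjusted over the 5 sites by Benjamini-Hochberg, the lowest of these exact permutation p-values was 0.0893, so none passed 0.05. With 28 arrangements, Am2256 and Ψ2258 alone at the smallest possible p cannot pass after this adjustment. Their failure to pass therefore decides nothing about these sites. Neighbouring sites share 5-mers, so the 5 values are not independent.

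**Figure D4:**
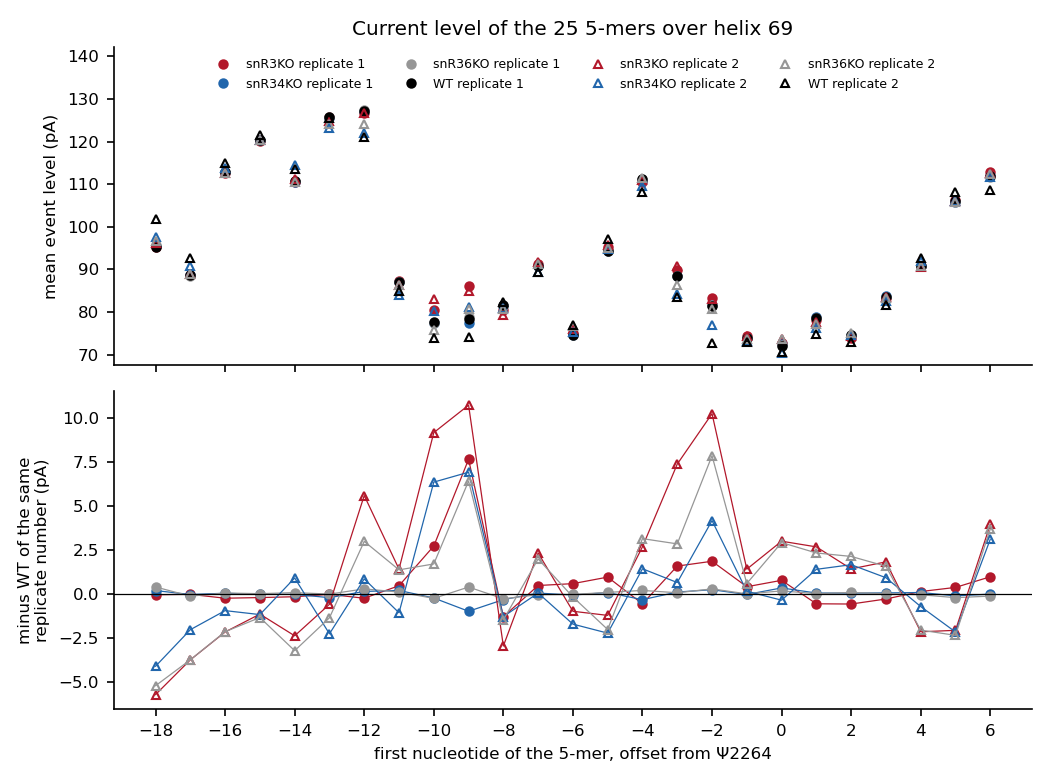
Mean event level of the 25 5-mers in 8 strain libraries (top, pA) and its difference from WT of the same replicate number (bottom, pA), against the offset of the first nucleotide of the 5-mer from Ψ2264. In replicate 1 (circles) snR3KO departs by 7.64 pA at offset -9 while the other knockouts stay near 0, and in replicate 2 (triangles) all 3 knockouts depart from WT.

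Across sucrose gradient fractions the mean mismatch was lowest in F1 at Am2256, Ψ2258 and Ψ2264 and highest in F1 at Ψ2260 and Ψ2266. Over the 21 members it was higher in F1 than in F2 at 12 and lower at 9. At Ψ2258 the F1 libraries were mismatched in 71.7% and 70.4% of reads. F2 gave 79.6% and 81.7%, F3 82.1% and 78.7%, and F4 78.3% and 82.1%. Both F1 libraries were below the 6 others. At Ψ2264 F1 measured 58.7% and 52.0%, F2 62.9% and 65.2%, F3 64.8% and 66.9%, and F4 60.0% and 65.2%. The F1 mean was 55.3% ± 4.73 (SD, n = 2) against 65.8% ± 1.51 (SD, n = 2) in F3, the widest gap in mismatch, 10.5 points, among the 21 members. At Ψ2260 the means were 25.1% ± 6.32 in F1 and 19.6% ± 0.388 in F3, and at Ψ2266 16.5% ± 4.92 in F1 and 12.4% ± 3.40 in F4 (SD, n = 2), gaps smaller than those between the 2 F1 libraries.

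Deletion at Ψ2260 showed the widest gap of its kind, with 58.5% ± 4.85 (SD, n = 2) in F1 and 70.2% ± 0.894 (SD, n = 2) in F3. Deletion at Ψ2266 was 44.7% ± 4.73 (SD, n = 2) in F1 and 50.1% ± 2.50 (SD, n = 2) in F4, a gap smaller than the 6.70 points between the 2 F1 libraries. These 2 sites were the exceptions. Mean deletion was lower in F2 than in F1 at the other 19 members, and the median difference over all 21 was -1.34 points. Mean insertion was lower in F2 at 16 and higher at 5. The median deletion over all positions was also higher in F1 (3.37% and 2.50%) than in F2 (2.35% and 1.87%). The F1 libraries had only 91 to 100 reads here. Their mean base quality was below that of F2 at 21 of 21 members, by a median of 0.939, and at 78.8% of all positions. The libraries of F1 and F2 overlapped in quality at 16 of the 21, and did not at 5, against 13.3% of all positions without overlap. The part of depth and quality in the F1 values was not tested.

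None of these gaps passed the test across positions. A quasi-binomial logistic model of mismatched reads with dispersion moderated by limma was fitted at 5305 positions. It called 0 of 21 members, and 0% of all positions, for any difference among the 4 fractions and for F2, F3 and F4 each against F1. Unadjusted p-values under 0.05 numbered 877, 53, 34 and 208 over all positions and 3, 0, 1 and 1 among the members. The model assumes the same dispersion at all depths. Spread between replicates relative to sampling noise (the chi-square average given below) was lower in F1 and F3 than in F2 and F4. These p-values may therefore be off, and the lack of calls against F1 does not show that the fractions are alike. For any difference the lowest member was U2268 (21.0% ± 4.18 in F1 and 26.5% ± 3.27 in F2, SD, n = 2), with an adjusted p of 0.265 in the limma-moderated model. Against F1 the lowest member was Ψ2258 in all 3 comparisons, with adjusted p of 1.00, 1.00 and 0.833 in the same model. Fits of insertion, of deletion, of the sum of the 3 errors and of base quality also called 0 of 21 members in the 4 comparisons. Over all positions, for any difference among the fractions, deletion called 2 (0.0377%) and the sum of errors 1 (0.0189%), and the other such fits called 0.

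In the peroxide experiment, the group means lay closer together than the libraries of a group at most members. In total RNA, mismatch at Ψ2264 was 58.0% and 65.0% without and 63.2% and 65.3% with H2O2, the largest peroxide difference there, 2.75 points, and smaller than the 7.04 points between the 2 WTinput libraries. In the translated fractions it was 58.0% and 61.6% without and 61.7% and 59.9% with H2O2, and the groups overlapped. The largest difference in the translated fractions was at Ψ2260, with 20.8% and 19.2% without and 23.2% and 22.7% with H2O2. Both treated libraries were above both untreated ones there, by 2.99 points between means of 20.0% ± 1.16 and 23.0% ± 0.374 (SD, n = 2). The 2 groups also did not overlap at C2257 (0.365 points). Nor did they at G2253 (-0.605), Am2256 (-2.51), Ψ2258 (-1.74) and A2262 (-0.314), where the treated libraries were lower. The share of all positions without such overlap is not given here.

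At Am2256 the means were 82.3% ± 0.770 in WTinput, 82.1% ± 1.88 in H2O2input, 82.6% ± 0.905 in WTtranslated and 80.0% ± 2.18 in H2O2translated (SD, n = 2). At Ψ2258 they were 80.5%, 80.6%, 80.8% and 79.0%, and at Ψ2266 14.0%, 14.7%, 15.2% and 14.3%, in the same order of groups. Deletion at Ψ2266 had means of 49.7%, 48.6%, 47.7% and 48.5%. The range of the 4 group means exceeded the widest gap between libraries of a group at 2 of 21 members for mismatch (15.8% of all positions), 6 for insertion (16.6%) and 8 for deletion (15.7%).

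The same model at 5425 positions called 0 of 21 members and 0% of all positions in each of the 5 comparisons: peroxide in input, peroxide in the translated fractions, the difference between these effects, and translated against input without and with peroxide. Unadjusted p-values under 0.05 numbered 168, 159, 142, 117 and 198 over all positions and 0, 2, 2, 1 and 3 among the members. The assumption of the same dispersion at all depths limits these fits too. Among the peroxide groups, the chi-square average between replicates was highest in H2O2translated over all positions but lowest there over the members. The lack of calls therefore does not show that the groups are alike. The lowest members were A2259, G2250, Ψ2260, U2254 and Ψ2260 in that order, with limma-moderated adjusted p between 0.998 and 1.00. At A2259 the means were 80.4% ± 1.71 in WTinput and 78.9% ± 1.03 in H2O2input (SD, n = 2). At G2250 they were 3.17% ± 0.320 in WTtranslated and 2.48% ± 1.29 in H2O2translated (SD, n = 2), and at U2254 0.428% ± 0.215 in WTinput and 0.928% ± 0.447 in WTtranslated (SD, n = 2). For Ψ2260 after peroxide, 20.4% ± 1.68 in H2O2input stood against 23.0% ± 0.374 in H2O2translated (SD, n = 2). Insertion, deletion, their sum with mismatch and base quality also gave 0 of 21 members in the 5 comparisons. Over all positions, deletion called 3 for peroxide in input (0.0553%), and the other such fits called 0.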

How the data were processed

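Native rRNA was sequenced in 24 libraries, of which 20 have error tables and 8 have current tables, assigned by the deposited file names to EpiNano and Nanopolish. Per the file headers, coverage is a deposited read count per position, mismatch, insertion and deletion are each a fraction of those reads (shown here as percent), base quality is a mean score, and the current is a mean signal per 5-mer. Fraction times count gave a whole number at 100% of positions (tolerance 0.001). The number of reads behind a current level is unknown. Replicate 2 of the strains has current only, from files named flongle (a small flow cell type). Which basecaller, aligner and build the authors used is not given in the sources used here. File positions of the current tables count from 0 and were shifted by 1, after which 100% of 5-mers matched the reference.

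Members and lists were chosen with earlier results of these data known. The list of 45 pseudouridines was compiled from general knowledge. Positions needed 20 reads in every library compared. Strain error rates were compared by size (10 points) with no test. Mismatch in fractions and peroxide groups was fitted with a quasi-binomial model, dispersion moderated with limma 3.58.1 (R 4.3.3), and current with limma, both Benjamini-Hochberg adjusted at 0.05. Both models were run on simulated data. For the quasi-binomial model the limits to pass were set only for noise with the same dispersion at all depths, as that model assumes. Its run therefore sets no limit for noise that differs with depth. For current the simulated noise was equal in all libraries, unlike the gaps between replicates above. That run therefore does not show how the current model behaves with unequal gaps. Named members are the 5 sites, those 10 points from WT in a knockout or at 20% of reads in WT, and the lowest p of each test; others given with values were chosen after their values were seen. Python 3.11.15 was used for the remainder. Alternatives were another reference, size, coverage minimum, error feature, model, scaling, replicate block and each library left out. A chi-square statistic per position, averaged over all rRNA positions, was 1.42 to 6.20 between replicates. This was above sampling noise in all 8 groups, so all libraries were kept as separate samples. Over the members alone the average ran from 0.735 in H2O2translated and 1.05 in F3 to 4.35 in F4.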

Additional observations from a re-analysis of the deposited data

How the results depend on the processing

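Among fractions and peroxide comparisons, 142 of 144 alternatives called 0 members. The exceptions, for any difference among F1 to F4, were fits without replicate 1 of F4 (2 members, G2250 and U2268, 330 of all positions) and without replicate 2 of F2 (1 member, U2268, 433 positions). Leaving out single libraries gave 0 to 2 members there and 0 members in the other 8, with 0 to 44 positions for peroxide in the translated fractions (44 without H2O2translated replicate 1) and 0 to 49 for translated against input after peroxide (49 without the same library). Deletion in place of mismatch called 2 positions among fractions and 3 for peroxide in input, and the sum of errors 1 among fractions, none a member. For current, leaving out single libraries gave 0 to 6 members in snR3KO, 0 to 3 in snR34KO and 0 to 6 in snR36KO. All nonzero member counts came without replicate 1 of WT (1013, 703 and 1057 5-mers called over all), when replicate 2 of WT, the library that stands apart, is the only reference and is assumed to vary like the other groups. At 5 points, 9 of 63 pairs passed in snR3KO, and at 20 points 1. Against the mean of the other 3 strains 1 pair passed in snR34KO and 1 in snR36KO, by construction, since that mean includes snR3KO at Ψ2264. With the replicate block, 0 members were called in every comparison. Over all 5158 5-mers that block called 1 for current in snR3KO. The exact permutation p at Ψ2264 with the block was 0.0625, the smallest that 16 arrangements can give (0.0714 with a common median and spread). Same-numbered libraries deviated together weakly among fractions (r 0.104 to 0.282) and in the peroxide groups (r -0.0244 to 0.150). For current r was 0.146 to 0.519. The current files of replicate 2 of the strains are named flongle, so flow cell type may go with replicate number there. Beyond that the labels give no shared source. Signs of site and 5-mer estimates, none of which was called in the reported fits, were opposite in 125 of 684 alternative fits. Depth limits F1 most, with 91 to 100 reads over the stretch, and strain error rates rest on 1 library each.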
